A study of Homo sapiens with 9 samples.

Results

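The genes described here separated 2 transformed derivatives of the human mammary epithelial line MCF10A, treated as 1 set, from the parental line. Expression was read as counts per 1000000 (CPM) from poly-A RNA sequencing of 9 cultures. A gene was kept when all 6 libraries of the derivatives MC26 and M1B26 lay on one side of all 3 parental libraries in CPM. Of 15717 genes with enough counts to test, 4888 (31.1%) were kept, 2392 (15.2%) with all 6 libraries higher and 2496 (15.9%) with all 6 lower.

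MCF10A is an immortalized, non-tumorigenic line whose CDKN2A locus is deleted, and CDKN2A had 0 counts in each of the 9 libraries. The parental cultures (CT) received no added cytokine. MC26 was obtained from unsorted MCF10A cells kept for a long time with BMP2 and IL6, and M1B26 from cells sorted for the receptor BMPR1B, treated likewise, from which soft-agar clones were picked and expanded. Each line gave 3 cultures. The sources used here do not say whether each M1B26 culture was a single clone. Because both derivatives were grown with BMP2 and IL6 still present, the direct response to the factors and the lasting state of the lines cannot be told apart. All the libraries carried epithelial RNA. The 11 epithelial markers summed to between 9574 and 12063 CPM in CT and to between 11797 and 19430 CPM in the 6 transformed libraries. None of the 11 was at or under 3 counts in every library. The sum mainly follows KRT5 and KRT6A, which held the most counts, and single markers moved in both directions. Of the 11, 5 had all 6 transformed libraries above CT and 1, CDH1, had all 6 below. Whether a level fell because fewer cells expressed a gene or because each cell held less of its RNA cannot be told apart in bulk samples.

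BMP2 binds a pair of type I and type II serine/threonine kinase receptors, which phosphorylate SMAD1, SMAD5 and SMAD9. These move with SMAD4 to the nucleus and switch on targets such as the ID genes, inhibitors of differentiation factors, and the inhibitory SMADs that close the loop. IL6 binds IL6R and the shared subunit IL6ST, and its JAK kinases activate STAT3, whose target SOCS3 shuts the receptor down. In mammary epithelium both pathways act on progenitor cells and on inflammation, and NF-kB, a factor downstream of interleukin 1 and TNF receptors, drives many of the same cytokine genes.

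The promoter windows of chemokine and NF-kB pathway genes are shown first, because those lists hold some of the highest shares of genes with all 6 libraries above CT. RefSeq promoter sequences (build GRCh38.p14) could be matched by symbol to 10945 of the 15717 genes tested. Of the 15 kept members of these lists with a promoter in the table, 6 held a match to the NF-kB consensus on either strand. The match lay in the 100 bases before the start, where 2.03% of all 27195 promoters held one. These were 4 of 5 chemokines and 2 of 10 genes of the NF-kB list. That list includes NF-kB target genes by definition, so the comparison with all promoters is not a test of the kept genes. Over the 250 bases before the start, and whether kept or not, 8 of 11 chemokine promoters and 7 of 19 of the NF-kB list held such a match. Among kept genes as a whole the shares were 5.71% of genes with all 6 libraries higher, 5.86% of those with all 6 lower, beside 5.86% of all genes tested. Capitals mark the match, and each window runs 5′ to 3′ in the direction of the gene. The windows lie at chr4:73869293-73869392 (CXCL1, plus strand), chr4:74099196-74099295 (CXCL2, minus strand), chr4:74038690-74038789 (CXCL3, minus strand), chr2:227813742-227813841 (CCL20, plus strand), chr6:137867159-137867258 (TNFAIP3, plus strand) and chr16:3065303-3065402 (IL32, plus strand).
CXCL1: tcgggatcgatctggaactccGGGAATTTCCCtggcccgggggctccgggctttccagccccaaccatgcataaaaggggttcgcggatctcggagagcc
CXCL2: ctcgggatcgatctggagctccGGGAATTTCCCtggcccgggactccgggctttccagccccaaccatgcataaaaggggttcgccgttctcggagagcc
CXCL3: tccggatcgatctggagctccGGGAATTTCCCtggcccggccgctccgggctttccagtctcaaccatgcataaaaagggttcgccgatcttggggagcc
CCL20: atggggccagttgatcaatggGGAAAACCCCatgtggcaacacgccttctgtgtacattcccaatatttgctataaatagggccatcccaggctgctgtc
TNFAIP3: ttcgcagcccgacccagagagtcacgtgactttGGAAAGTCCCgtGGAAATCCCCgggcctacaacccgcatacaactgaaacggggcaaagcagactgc
IL32: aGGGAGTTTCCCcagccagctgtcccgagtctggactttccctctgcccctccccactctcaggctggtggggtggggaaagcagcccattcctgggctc
CXCL1, CXCL2 and CXCL3 carried the same run of capitals at nearly the same distance from the start. Their flanking bases are also close to identical, and reads could have been split between these paralogs by the counting. A match describes the letters of the window and is not evidence that a factor binds there.

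Of 8 motifs searched, AP-1 and the SMAD GC-rich element are given here and were picked after their shares were seen. The AP-1 letters TGAGTCA, on either strand in the 250 bases before the start, stood in 4.12% of all 27195 promoters and in 2.79% of those of the genes tested. The share was 3.99% of genes with all 6 libraries higher and 2.09% of those with all 6 lower. Among genes at least 2-fold from CT in each line it was 7.58% of 264 higher genes and 3.32% of 361 lower genes. For the SMAD GC-rich letters GGCGCC the shares were 16.2% of all promoters, 25.6% of genes tested, 24.8% of genes with all 6 libraries higher and 24.2% of those with all 6 lower, against 14.4% of these higher genes and 22.7% of these lower genes. These shares are given as a description.

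Sequencing gave between 21425118 and 80076597 counts per library, both extremes in CT, and scaling factors ran from 0.9685 to 1.069. Pearson's r of log2 CPM was 0.986 to 0.995 within a line, 0.951 to 0.971 between CT and a transformed library, and 0.965 to 0.975 between MC26 and M1B26. The library numbers in the table's headers ran together within each line, so that the line and any preparation batch cannot be told apart. The test compared the mean of the 2 line means with CT, and genes with an adjusted p under 0.05 were taken as changed. It called 7202 genes (45.8%), 3603 higher (22.9%) and 3599 lower (22.9%). With MC26 and M1B26 merged as 1 group, so that the gap between the lines entered the spread, 3975 genes were called, among them 3781 of the kept genes. Of the kept genes 4669 were called and 219 were not, and 2533 called genes were not kept because at least 1 transformed library overlapped CT. The kept genes were chosen on the same values as this test, so their differences from CT are described by size and standard error (SE) only.

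Most kept genes moved little. Of the 2392 higher genes 1425 were under 1.5-fold and 544 were at least 2-fold above CT, with a median log2 fold change of 0.49 and 104 genes at 8-fold or more. Of the 2496 lower genes 1187 were under 1.5-fold and 744 at least 2-fold below CT, with a median of -0.62 and 117 genes at 8-fold or more. The split between directions depended on scaling. With library totals in place of the scaling factors, 1634 genes lay higher and 3299 lower (33.1% higher in place of 48.9%), called genes split into 2651 and 4743 (35.9% higher in place of 50%), and the median of all genes tested moved to -0.08 on the log2 scale. At the edge of the rule, TFDP1, a cell-cycle factor partner, was kept with 271, 258 and 274 CPM in CT, 298, 274 and 292 CPM in MC26 and 297, 285 and 294 CPM in M1B26. PYGO2, a WNT co-activator, fell just outside, with 51.9, 47 and 51.9 CPM in CT, 47, 43.6 and 42.5 CPM in MC26 and 41.8, 45.4 and 47 CPM in M1B26.

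**Figure D1:**
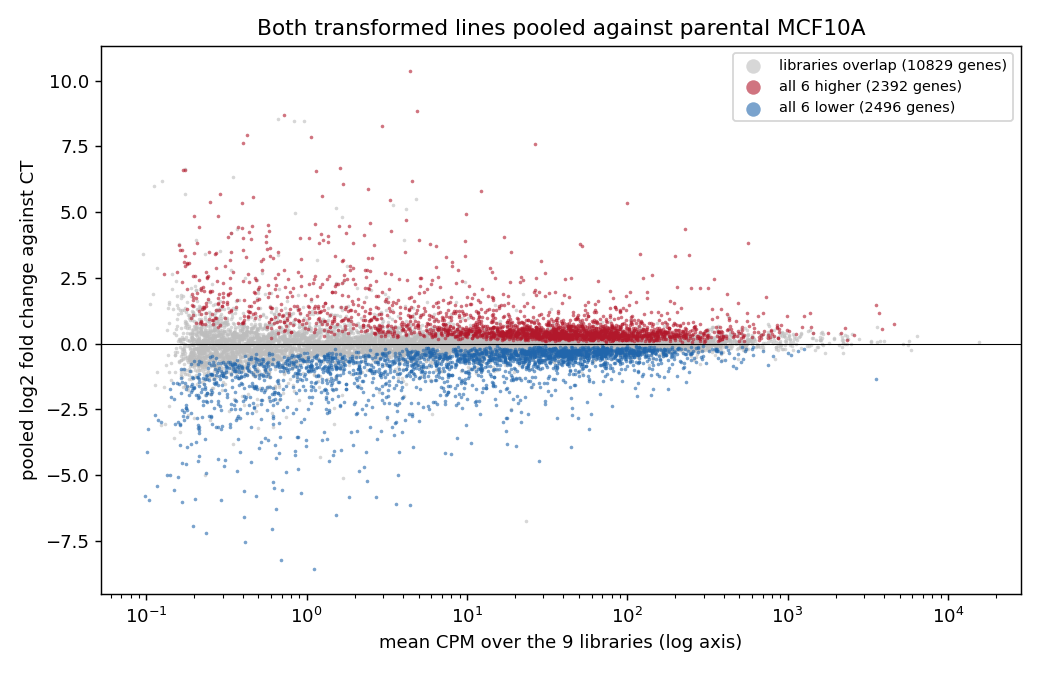
Pooled log2 fold change against CT (vertical axis) by mean CPM over the 9 libraries (horizontal, log axis), 1 point for each of 15717 genes. Red points are the 2392 genes with all 6 transformed libraries above CT, blue points the 2496 with all 6 below, and most of both lie near 0 among well-expressed genes.

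A set of 957 kept and called genes was at least 2-fold from CT in each line with the same sign, 416 higher and 541 lower. With a mean of at least 5 CPM over all libraries, 303 remained, 147 higher and 156 lower. Of these 303, the genes furthest from CT in either direction are described next.

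Of the 303, SAMSN1, an adaptor protein best known from lymphocytes, stood furthest above CT. The gene lies at chr21:14485228-14658821 (GRCh38). Its level was 0.1, 0.175 and 0.146 CPM in CT, 6.04, 11.2 and 12.5 CPM in MC26 and 61.9, 75.5 and 70.6 CPM in M1B26. The pooled log2 fold change was 7.61 ± 0.33 (SE), and M1B26 lay above MC26 by 2.80 ± 0.21 (adjusted p = 5.31e-06). LCP1, the actin-bundling protein L-plastin (chr13:46125920-46211871), was even across the lines. It measured 15.4, 18.3 and 15.2 CPM in CT, 334, 347 and 322 CPM in MC26 and 346, 351 and 315 CPM in M1B26, a log2 fold change of 4.38 ± 0.09. The 6 transformed libraries spanned a narrow range far above CT, and the lines did not differ detectably (0.01 ± 0.08, adjusted p = 0.924). NRCAM, a neuronal adhesion molecule, and GSDMC, a gasdermin, were likewise even, at log2 fold changes of 3.71 ± 0.10 and 3.80 ± 0.17. Both SAMSN1 and LCP1 are abundant in leukocytes. The 10 leukocyte markers summed to between 19.6 and 25.7 CPM in CT and between 41.4 and 84.3 CPM in the transformed libraries, while PTPRC, CD3E, CD3D and MS4A1 did not exceed 3 counts in any library. The rise of the sum came with CD68 and CD14, at pooled log2 fold changes of 1.44 and 1.28, and the part of such cells was not tested.

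Other leading genes differed strongly between the lines. POSTN, the matrix protein periostin (chr13:37562583-37598844), measured 0.0572, 0.131 and 0.122 CPM in CT, 66, 26.2 and 14.4 CPM in MC26 and 0.631, 1.77 and 0.277 CPM in M1B26. MC26 carried it far above M1B26, in which replicate 3 lay closest to CT, and the difference between the lines was -5.37 ± 0.64 (adjusted p = 0.00012). CHRNA9, a nicotinic receptor subunit, had 2.74, 3.23 and 3.56 CPM in CT, 68.1, 90.6 and 71.7 CPM in MC26 and 201, 232 and 221 CPM in M1B26, with M1B26 above MC26 in every library. HSD17B2, which inactivates estradiol, showed the opposite order, with 4.03, 4.5 and 4.6 CPM in CT, 124, 119 and 106 CPM in MC26 and 26.8, 33.2 and 35.2 CPM in M1B26. SAMD11, INSYN2B and the non-coding AC079949.2 were also higher in MC26, at differences of -3.20 ± 0.32, -1.12 ± 0.28 and -1.39 ± 0.24. The pooled changes of these genes were thus means of unequal lines.

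KRT14, the keratin of basal and myoepithelial cells, rose by 3.83 ± 0.24 on the log2 scale. It measured 58.3, 42.2 and 61.7 CPM in CT, 1521, 766 and 1004 CPM in MC26 and 461, 558 and 625 CPM in M1B26, without overlap between the lines. SERPINB3, a squamous protease inhibitor whose paralog SERPINB4 is near-identical, had 0.772, 0.874 and 1.14 CPM in CT, 4.23, 11.8 and 28.8 CPM in MC26 and 10.2, 11.9 and 17.8 CPM in M1B26. Its MC26 replicates were widely spread. GRAMD1B, a sterol transfer protein, and IL1B are among the remaining leading genes, at 3.50 ± 0.18 and 3.42 ± 0.17. The non-coding AL162151.2 entered the list with 0, 2.53 and 0 CPM in CT, 6.09, 2.9 and 6.07 CPM in MC26 and 8.99, 6.18 and 12.6 CPM in M1B26. Its CT signal came from replicate 2 alone, and its log2 fold change of 3.92 ± 1.01 lost its call with DESeq2 (adjusted p = 0.154) and in a fit with the lines merged (adjusted p = 0.0707).

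Among genes below CT, ETNK2, an ethanolamine kinase of phospholipid synthesis (chr1:204131062-204152044), fell the most of the 303. Its level was 82.2, 69.2 and 79.95 CPM in CT, 1.42, 3.4 and 4.54 CPM in MC26 and 2.73, 3.88 and 4.75 CPM in M1B26, a log2 fold change of -4.48 ± 0.22. PPL, periplakin, which links keratin filaments to the plasma membrane, measured 129, 108 and 121 CPM in CT, 1.44, 4.42 and 14.9 CPM in MC26 and 7.93, 6.08 and 11.4 CPM in M1B26. SCNN1B, a subunit of the epithelial sodium channel, measured 46.7, 44.5 and 48.4 CPM in CT, 0.97, 2.46 and 8.12 CPM in MC26 and 1.38, 2.44 and 4.62 CPM in M1B26. EHF, an epithelial ETS factor, had 42.7, 48 and 39.8 CPM in CT, 0.92, 2.01 and 7.25 CPM in MC26 and 3.97, 3.19 and 9.07 CPM in M1B26. In each of these genes MC26 replicate 3 lay nearer CT than the other MC26 libraries, and in PPL and SCNN1B the 3 MC26 libraries differed among themselves more than the lines did. The same library was the nearest to CT of its line in 111 of the 156 lower genes and 93 of the 147 higher genes, and M1B26 replicate 3 in 104 of the 156 lower and 49 of the 147 higher genes. Without both libraries 5937 genes were kept, 2886 higher and 3051 lower.

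Several of the lowest genes lay further from CT in MC26. CAMK2B, a calcium-dependent kinase subunit, had 25.4, 15.9 and 18.8 CPM in CT, 0.149, 0.392 and 0.494 CPM in MC26 and 3.31, 1.7 and 5.13 CPM in M1B26, and the lines differed by 3.29 ± 0.47 (adjusted p = 0.000394). The cytochrome P450 CYP4X1 and the ectonucleotidase ENTPD2 had differences of 1.51 ± 0.38 and 1.78 ± 0.30 in the same direction. KRT15, a basal progenitor keratin, had 158, 114 and 148 CPM in CT, 6.22, 6.62 and 12 CPM in MC26 and 21.5, 18.1 and 37.6 CPM in M1B26. S100A4, a calcium-binding protein often linked to motility, had 119, 116 and 111 CPM in CT, 7.76, 9.83 and 22.7 CPM in MC26 and 18.6, 18 and 21.3 CPM in M1B26, and the lines did not differ detectably (0.52 ± 0.29, adjusted p = 0.183). PDK4, an inhibitor of pyruvate dehydrogenase, MEGF6, DAPK1, a death-associated kinase, SUSD2, KRT80 and SNED1 completed the lowest 15, with pooled log2 fold changes between -3.77 and -2.95.

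**Figure D2:**
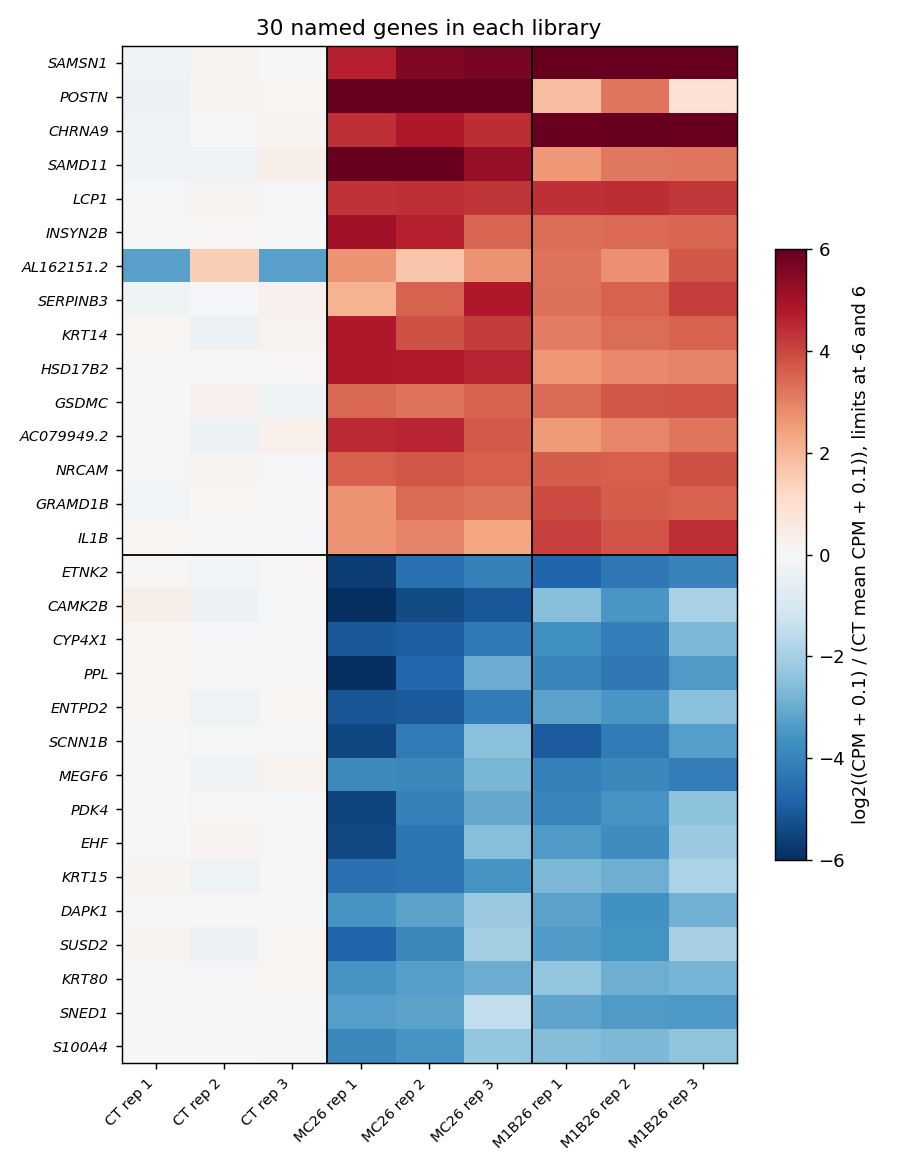
Log2 ratio of each library's CPM to the CT mean (0.1 CPM added to both, colour limits at -6 and 6). Rows are the 15 genes furthest above and the 15 furthest below CT among the 303. These 303 lay at least 2-fold from CT in each line, with a mean of at least 5 CPM. Columns are the 9 libraries by line, and the paler cells of MC26 replicate 3 in the lower block show it nearest to CT of the MC26 libraries.

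Of 16 tested BMP/SMAD target genes, 9 had all 6 libraries higher and 2 all lower, and 12 rose and 3 fell by the test. Their median log2 fold change was 1.25, against 0.00 over all genes tested. For this and each later list, the shares over all genes tested were 15.2% kept as higher and 15.9% as lower. By the test 22.9% were called in each direction. ID1 measured 98.9, 76.7 and 117 CPM in CT, 468, 449 and 383 CPM in MC26 and 406, 435 and 422 CPM in M1B26, with no detectable difference between the lines (-0.04 ± 0.13, adjusted p = 0.821). ID2 had 0.643, 1.05 and 0.964 CPM in CT, 15.4, 19.9 and 16.1 CPM in MC26 and 4.67, 3.57 and 4.04 CPM in M1B26, and ID3 28.4, 21.9 and 37.5 CPM in CT, 276, 226 and 176 CPM in MC26 and 122, 122 and 122 CPM in M1B26. The pooled log2 fold changes were 2.13 ± 0.12, 3.29 ± 0.18 and 2.49 ± 0.18, and no transformed library overlapped CT for any of the 3 genes. MC26 exceeded M1B26 for ID2 (-2.06 ± 0.16, adjusted p = 8.09e-06) and ID3 (-0.88 ± 0.18, adjusted p = 0.00291).

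The inhibitory SMADs separated the lines. SMAD6, which blocks BMP receptor signalling, had 1.23, 0.961 and 1.56 CPM in CT, 17.2, 13.4 and 8.33 CPM in MC26 and 1.78, 2.67 and 1.57 CPM in M1B26. The M1B26 libraries lay barely above the highest CT library. SMAD7 measured 9.83, 8.3 and 10.6 CPM in CT, 32.7, 28.7 and 20.9 CPM in MC26 and 11.4, 9.32 and 9.31 CPM in M1B26 and was not kept, because M1B26 overlapped CT. Differences of M1B26 from MC26 were -2.70 ± 0.28 (adjusted p = 5.13e-05) and -1.46 ± 0.16 (adjusted p = 6.92e-05). GATA2, a zinc-finger factor, was the kept target furthest above CT after ID2, with 0.3, 0.218 and 0.476 CPM in CT, 2.98, 2.25 and 2.14 CPM in MC26 and 4.69, 5.25 and 4.75 CPM in M1B26. The homeobox gene DLX3 had its counts mostly in MC26, with 0, 0 and 0.0122 CPM in CT, 1.57, 0.968 and 0.423 CPM in MC26 and 0, 0.0237 and 0.0369 CPM in M1B26. It was called but not kept, since M1B26 replicate 1 had no count. RUNX2 and GATA3, the targets lower in all 6 libraries, had log2 fold changes of -1.23 ± 0.16 and -0.81 ± 0.09.

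SMAD9, a receptor-activated SMAD counted among the targets, had 6.79, 6.55 and 6.3 CPM in CT, 27.5, 22.9 and 16.6 CPM in MC26 and 10.4, 11 and 12.2 CPM in M1B26, and was named after its values were seen. In the separate list of 17 tested BMP ligands, receptors, antagonists and other SMADs, which holds neither SMAD9 nor the inhibitory SMADs, none had all 6 libraries higher and 5 had all 6 lower. By the test 2 rose, 6 fell and 9 were not called. The receptor BMPR1B measured 11.4, 15.2 and 11.3 CPM in CT, 9.47, 10.6 and 11.1 CPM in MC26 and 8.14, 8.02 and 8.48 CPM in M1B26. Its pooled log2 fold change of -0.44 ± 0.10 was the mean of -0.27 in MC26, not called on its own (adjusted p = 0.1), and -0.61 in M1B26, the line founded from BMPR1B-sorted cells (adjusted p = 0.00189). BMPR1A had 43.9, 52.3 and 43.1 CPM in CT, 42.4, 42.8 and 43.6 CPM in MC26 and 42.9, 41.2 and 47.1 CPM in M1B26 and was not called (adjusted p = 0.317). BMPR2, the type II receptor, stood at 61.1 ± 6.77 CPM in CT, 60.3 ± 4.79 CPM in MC26 and 38.5 ± 4.66 CPM in M1B26 (mean ± SD, n = 3), and the lines differed by -0.65 ± 0.11 (adjusted p = 0.000911). BMP4 and the procollagen C-proteinase BMP1 were the lowest kept members, at -0.89 ± 0.19 and -0.81 ± 0.06.

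In the IL6 pathway SOCS3, the feedback inhibitor, measured 6.4, 4.8 and 5.88 CPM in CT, 27.9, 27.3 and 35.8 CPM in MC26 and 29.7, 29.9 and 34.9 CPM in M1B26, a log2 fold change of 2.42 ± 0.13 with no detectable difference between the lines (0.06 ± 0.12, adjusted p = 0.745). JUNB and BCL3, also STAT3 targets, followed at 1.57 ± 0.12 and 0.79 ± 0.18. Of 17 STAT3 targets tested, 6 had all 6 libraries higher and 3 all lower, and 7 rose and 4 fell. The 17.6% of these targets kept as lower lay near the 15.9% of all genes tested. The lowest was SERPINA3, an acute-phase protease inhibitor, with 71.7, 63.5 and 61 CPM in CT, 3.65, 8.13 and 29.8 CPM in MC26 and 14.4, 21.3 and 44.8 CPM in M1B26. MC26 replicate 3 and M1B26 replicate 3 stood closest to CT in this gene.

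IL6 itself fell in the lines that received the cytokine. Its RNA measured 1.76, 2.05 and 1.62 CPM in CT, 0.0249, 0.157 and 0.0941 CPM in MC26 and 0.135, 0.071 and 0.111 CPM in M1B26, from 303 counts over the CT libraries and 26 over the 6 transformed libraries. The log2 fold change was -4.15 ± 0.28. Its receptor IL6R had 33.4, 34.2 and 34.2 CPM in CT, 21.1, 18.9 and 20.7 CPM in MC26 and 20.1, 15.1 and 19.8 CPM in M1B26, a change of -0.82 ± 0.09, and the shared subunit IL6ST did not differ detectably (-0.00 ± 0.09, adjusted p = 0.983). The related receptor LIFR, at -2.02 ± 0.14, had 17.9, 21.1 and 16.5 CPM in CT, 4.55, 5.39 and 4.31 CPM in MC26 and 3.92, 3.46 and 5.5 CPM in M1B26. LIF, its ligand, was lower in all 6 libraries and further so in MC26, at -1.77 against -0.80 in M1B26. STAT3 had 224, 207 and 208 CPM in CT, 225, 235 and 282 CPM in MC26 and 273, 253 and 302 CPM in M1B26, a small rise of 0.29 ± 0.08 whose call was lost with library totals (adjusted p = 0.0662) and with the lines merged (adjusted p = 0.0527). Of the 17 IL6 family genes tested, 1 was kept as higher and 6 as lower.

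**Figure D3:**
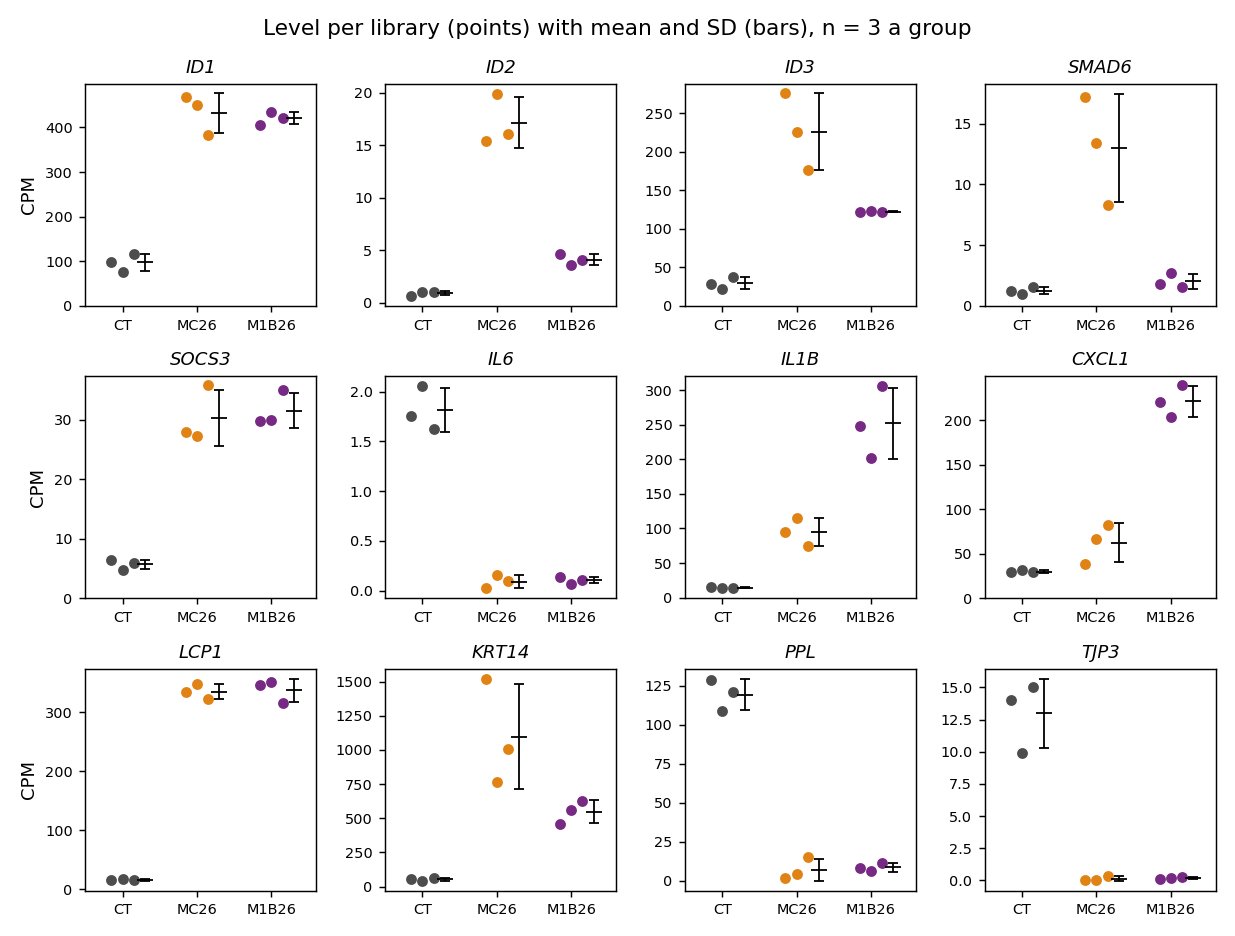
CPM of 12 genes in each library (points, linear axes from 0) with the mean and SD of 3 libraries a line (bars). ID1, SOCS3 and LCP1 reach like levels in MC26 and M1B26, ID2 and SMAD6 are higher in MC26, IL1B and CXCL1 are higher in M1B26, and IL6, PPL and TJP3 are lower in both lines than in CT.

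Genes of inflammatory signalling lay mostly above CT. For 20 NF-kB pathway genes 11 had all 6 libraries higher and 2 all lower, with 15 rising and 3 falling by the test. The granulocyte growth factor CSF3 measured 33.1, 27.5 and 34.1 CPM in CT, 243, 264 and 195 CPM in MC26 and 424, 449.8 and 514 CPM in M1B26, a log2 fold change of 3.38 ± 0.12. TNFAIP3, the deubiquitinase that restrains NF-kB, had 11.6, 11.1 and 11 CPM in CT, 34.1, 43 and 38.5 CPM in MC26 and 53.1, 42.5 and 48.3 CPM in M1B26. IL32, a cytokine, had 1.77, 1 and 1.61 CPM in CT, 7.36, 7.64 and 4.8 CPM in MC26 and 4.49, 5.85 and 11.6 CPM in M1B26. TRAF1 and TNFAIP2 went the other way, at -1.14 ± 0.21 and -1.44 ± 0.14. The promoters of TNFAIP3 and IL32 are among the windows printed above.

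Of 8 chemokines tested, 5 had all 6 libraries higher and none had all lower. CXCL1, which attracts neutrophils, had 29.2, 31.6 and 29.5 CPM in CT, 38.6, 66.2 and 81.9 CPM in MC26 and 221, 204 and 239 CPM in M1B26. CXCL2 had 6.95, 6.29 and 5.75 CPM in CT, 8.93, 10.7 and 9.46 CPM in MC26 and 24.6, 23.2 and 27.9 CPM in M1B26, and CXCL3 1.43, 1 and 1.37 CPM in CT, 9.95, 11.8 and 7.67 CPM in MC26 and 16.8, 19 and 18.2 CPM in M1B26. CCL20, a ligand of CCR6, measured 7.83, 9.61 and 7.15 CPM in CT, 16.8, 26 and 23.4 CPM in MC26 and 41.9, 39.8 and 67.1 CPM in M1B26, and CXCL8 3.93, 4.67 and 3.88 CPM in CT, 5.05, 7.4 and 8.45 CPM in MC26 and 21.7, 24.6 and 26 CPM in M1B26. Each of the 5 was higher in M1B26 than in MC26 without overlap. The differences between the lines were 1.83 ± 0.20 for CXCL1, 1.38 ± 0.11 for CXCL2, 0.88 ± 0.15 for CXCL3, 1.17 ± 0.21 for CCL20 and 1.79 ± 0.16 for CXCL8, all called. Near-identical CXCL1, CXCL2 and CXCL3 may share reads.

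In the interleukin 1 family 6 of 10 tested genes had all 6 libraries higher. IL1A measured 30.5, 35.4 and 27.5 CPM in CT, 163, 156 and 109.5 CPM in MC26 and 265, 227 and 267 CPM in M1B26, and IL1B 15.5, 14.3 and 13.7 CPM in CT, 94.7, 115 and 75.2 CPM in MC26 and 248, 202 and 306 CPM in M1B26. Both agonists were higher in M1B26 (0.83 ± 0.14 and 1.41 ± 0.16). IL1RL1, the receptor of IL33, had 0.186, 0.393 and 0.22 CPM in CT, 1.07, 4.29 and 15.1 CPM in MC26 and 2.28, 5.37 and 8.59 CPM in M1B26, at 4.69 ± 0.91 on the log2 scale, and IL33 0.0857, 0.131 and 0.11 CPM in CT, 0.224, 0.392 and 1.48 CPM in MC26 and 4.49, 3.08 and 2.29 CPM in M1B26. The receptor genes IL18R1 and IL1RAP rose by 1.34 ± 0.11 and 1.08 ± 0.08. The receptor antagonist IL1RN was called lower (-1.30 ± 0.34, adjusted p = 0.00885), although its libraries overlapped. IL18R1 and IL1RN were named after their values were seen.

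In other immune lists, 9 of 17 genes of MHC class I presentation had all 6 libraries higher and none had all lower. By the test 12 rose and none fell. With library totals 6 of the 17 were kept as higher, and 9 were called higher and 2 lower. With the lines merged 7 were called higher. PSMB9, an immunoproteasome subunit, led with 0.85 ± 0.11, followed by HLA-B at 0.71 ± 0.12 and PSMB10 at 0.53 ± 0.09. Reads of HLA genes may be shared between them. Of 42 interferon-stimulated genes 11 had all 6 libraries higher and 2 all lower, with 20 not called. SAMD9L and OASL led (1.498 ± 0.155 and 1.38 ± 0.17), and GBP2 was lowest (-1.11 ± 0.24). Of 18 TNF family members 8 had all 6 libraries higher and 1 lower. In the acute-phase and complement list 5 of 16 genes had all 6 libraries higher and 1 lower. The complement proteases C1S and C1R, at 5.45, 5.07 and 4.45 CPM in CT, 13, 25.6 and 34.4 CPM in MC26 and 22.1, 26.9 and 29.6 CPM in M1B26 for C1S, rose by 2.34 ± 0.27 and 1.82 ± 0.32. The alarmins S100A8 and S100A9 rose by 1.98 ± 0.63 and 1.89 ± 0.47, but replicate 3 of each line carried most of this, with 46.2, 36.4 and 41.8 CPM in CT, 46.2, 55.6 and 223 CPM in MC26 and 92.3, 128 and 524 CPM in M1B26 for S100A8. MC26 replicate 1 lay level with the highest CT library there.

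In the list of serine protease inhibitors and plasminogen activators, SERPINB4 measured 0.0572, 0.0874 and 0.159 CPM in CT, 1.19, 3.79 and 11.8 CPM in MC26 and 2.64, 3.1 and 7.09 CPM in M1B26, from 19 counts over the CT libraries, and SERPINB2, an inhibitor of urokinase, 0.1, 0.175 and 0.342 CPM in CT, 3.95, 2.67 and 1.01 CPM in MC26 and 8.88, 4.52 and 8.42 CPM in M1B26. SERPINB5, maspin, rose by only 0.88 ± 0.09, and SERPINB7 and SERPINB13 overlapped CT. These 3 were named after their values were seen. In all, 7 of 20 genes of the list had all 6 libraries higher and 1 lower.

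**Figure D4:**
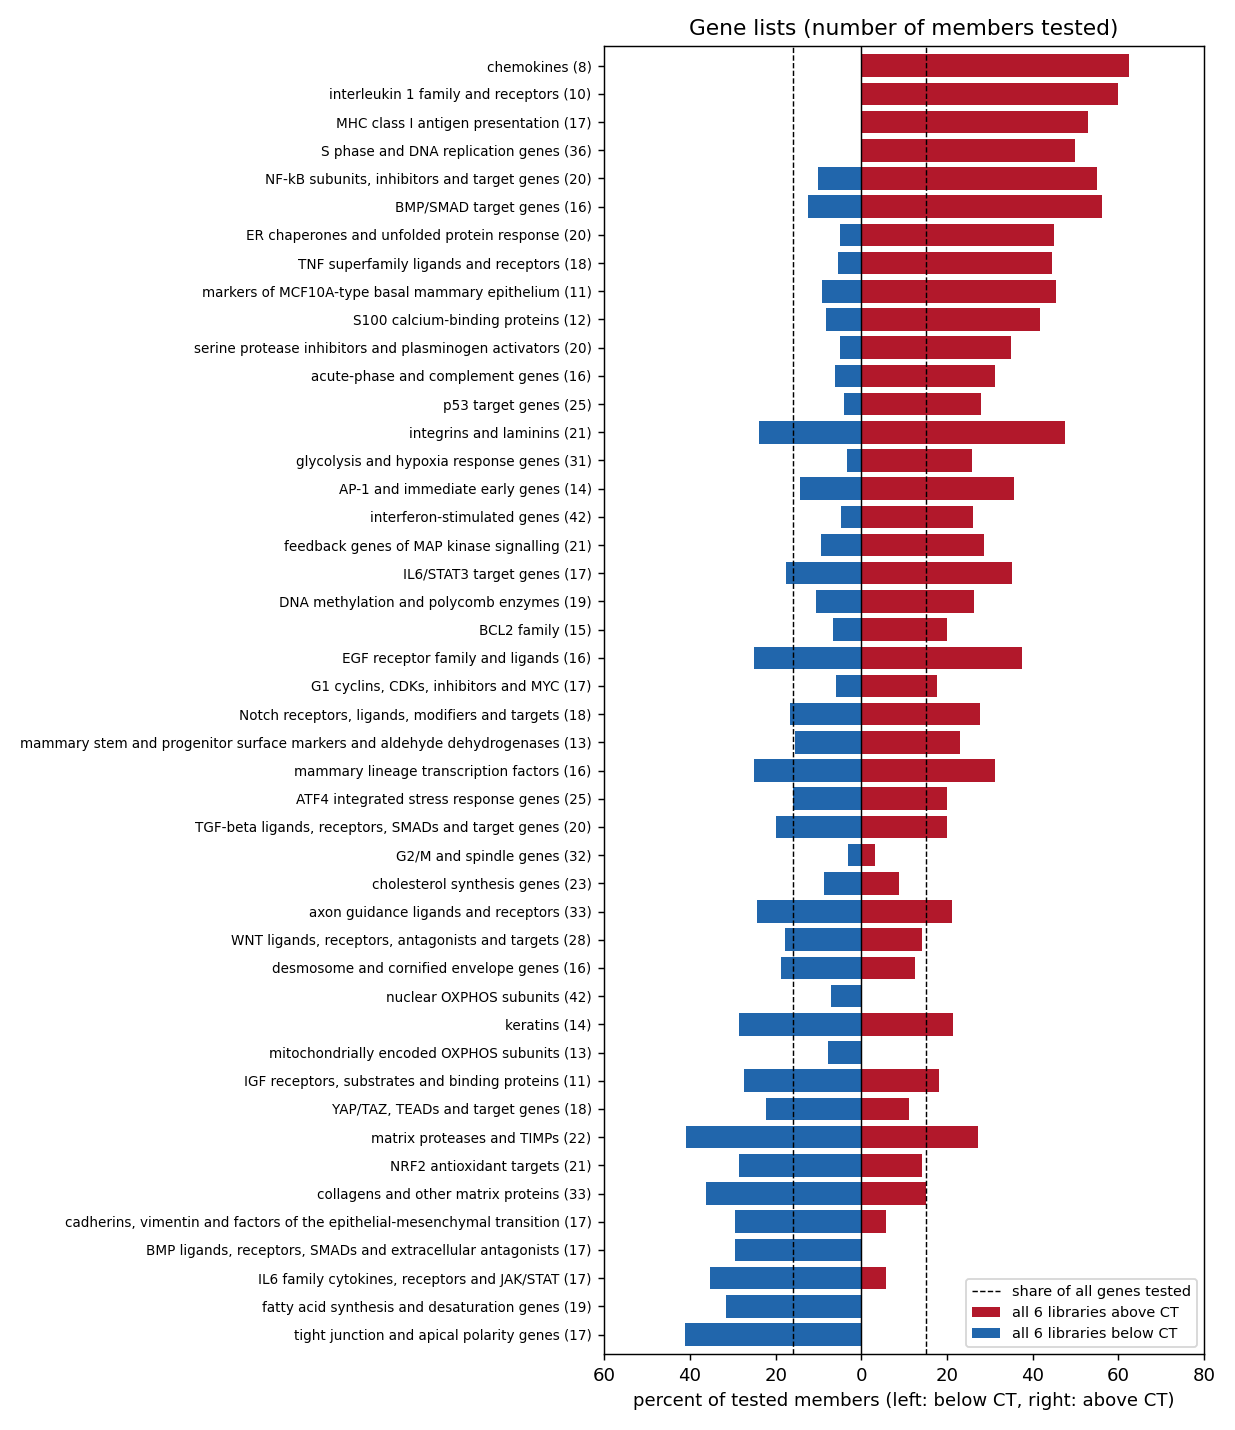
Percent of the tested members of each gene list with all 6 transformed libraries above CT (red, right) or below CT (blue, left), for lists with at least 8 members tested. Dashed lines mark the shares over all genes tested, 15.2% higher and 15.9% lower. Chemokines, the interleukin 1 family and BMP/SMAD targets reach furthest right and tight junction genes furthest left.

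Epithelial structure was described by junction, keratin and adhesion lists. Of 17 tight junction and polarity genes none had all 6 libraries higher and 7 had all lower, and 3 rose and 11 fell by the test. TJP3, a scaffold of tight junctions, measured 14, 9.91 and 15 CPM in CT, 0.0497, 0.0523 and 0.353 CPM in MC26 and 0.135, 0.189 and 0.295 CPM in M1B26, a log2 fold change of -6.15 ± 0.30. OCLN, the transmembrane protein occludin, had 5.09, 4.46 and 3.81 CPM in CT, 0.497, 0.445 and 0.353 CPM in MC26 and 1.83, 1.99 and 3.31 CPM in M1B26. CLDN1, claudin 1, had 18.2, 16.6 and 12.9 CPM in CT, 1.54, 1.91 and 3.15 CPM in MC26 and 6.85, 4.69 and 9.44 CPM in M1B26. Both lay further from CT in MC26, by 2.46 ± 0.28 and 1.67 ± 0.29.

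Among 14 keratins 3 had all 6 libraries higher and 4 all lower. KRT14, KRT6B and KRT6A rose by 3.83, 2.35 and 1.15, and KRT15, KRT80 and KRT8 fell, at -3.26, -2.98 and -0.57. KRT13 had no count in any MC26 library. On a floor of 3 counts per library its CT level was at least 15.6-fold higher than in MC26. KRT6A and KRT6B are near-identical. In the desmosome list PPL, PKP2 and DSP were lower in all 6 libraries, and DSP, the plaque protein desmoplakin, measured 688, 707 and 666 CPM in CT, 499.5, 522 and 574 CPM in MC26 and 326, 298 and 363 CPM in M1B26.

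CDH1, E-cadherin, fell, at -0.85 ± 0.13, with 86.2, 75.3 and 67.6 CPM in CT, 44.8, 37.5 and 39.9 CPM in MC26 and 42.8, 34.2 and 55.3 CPM in M1B26. VIM, vimentin, a mesenchymal filament, was not called (-0.10 ± 0.10, adjusted p = 0.433), and its libraries overlapped at 1061, 1021 and 1264 CPM in CT, 1287, 1150 and 931 CPM in MC26 and 938, 1022 and 929 CPM in M1B26. Of the 17 genes of the list on the epithelial-mesenchymal transition, 1 had all 6 libraries higher and 5 lower. The higher gene was SNAI2, a repressor found in basal cells, at 1.75 ± 0.16. The lower genes were CDH11, CDH2, ZEB2, CDH1 and ESRP1, at -2.20, -1.36, -1.18, -0.85 and -0.66, so that mesenchymal cadherins and E-cadherin lay on the same side.

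The matrix list leaned lower, with 5 of 33 genes kept as higher and 12 as lower. COL12A1, a fibril-associated collagen, had 124, 149 and 136 CPM in CT, 24.4, 21.2 and 21.3 CPM in MC26 and 18.1, 14.2 and 28.5 CPM in M1B26, and FBLN1, fibulin 1, had 288, 253 and 301 CPM in CT, 70.2, 69.1 and 90.9 CPM in MC26 and 59.9, 67.9 and 75 CPM in M1B26. BGN, biglycan, had no count in MC26, and its CT level was at least 6.44-fold higher than the floor there. COL17A1, the collagen of hemidesmosomes, was among the genes that rose, at 294, 252 and 281 CPM in CT, 1461, 1073 and 954 CPM in MC26 and 821, 739 and 709.7 CPM in M1B26. The fibroblast markers summed to between 37.4 and 37.8 CPM in CT and between 17.1 and 56.8 CPM in the transformed libraries, with DPT, COL1A2 and COL3A1 at or under 3 counts in every library. Of the other fibroblast markers, COL1A1 had all 6 libraries higher (0.65 ± 0.12), LUM was called higher with overlap, from 18 counts in CT and 726 in the transformed libraries, and DCN and PDGFRB were not called. Endothelial markers summed to between 8.32 and 8.47 CPM in CT and between 2.36 and 6.70 CPM in the transformed libraries, with VWF, CDH5 and EMCN at or under 3 counts. PECAM1 had all 6 libraries lower (-3.33 ± 0.38) and TEK all 6 higher (1.42 ± 0.31). The part of such cells in these results was not tested.

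Integrins and laminins included 10 of 21 genes with all 6 libraries higher and 5 lower. ITGB6, an epithelial integrin that activates TGF-beta, measured 24.9, 25.2 and 24.3 CPM in CT, 88.3, 71.3 and 49.4 CPM in MC26 and 73.2, 65.5 and 66.8 CPM in M1B26. ITGA6, the partner of ITGB4 in hemidesmosomes, rose by 1.16 ± 0.09. ITGB2, ITGB8 and LAMB2 were the lowest, at -1.29 ± 0.12, -1.22 ± 0.19 and -1.04 ± 0.07. Of 22 matrix proteases and inhibitors 6 were kept as higher and 9 as lower. MMP3, stromelysin 1, had no count in CT and was at least 2.59-fold above the CT floor in MC26 and 4.64-fold in M1B26. MMP14, a membrane protease, rose by 0.95 ± 0.09. ADAM12 and TIMP3, a protease and an inhibitor, fell, at -1.95 ± 0.13 and -1.24 ± 0.07.

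Of 16 EGF receptor family genes, the 6 with all 6 libraries higher were all ligands: NRG1, EREG, HBEGF, TGFA, EPGN and AREG, the first 3 at 1.59 ± 0.24, 1.59 ± 0.10 and 1.09 ± 0.21. The 4 lower were the ligand NRG2, the receptor ERBB3 and the receptor inhibitors ERRFI1 and LRIG1. LRIG1 measured 24, 22.6 and 24.3 CPM in CT, 3.78, 3.45 and 5.98 CPM in MC26 and 5.46, 4.4 and 8.38 CPM in M1B26. Naming all 10 was decided after their values were seen. In the TGF-beta list 4 of 20 genes were kept as higher and 4 as lower, near the shares over all genes tested (15.2% and 15.9%). TGFB2 had 8.07, 9.87 and 8.7 CPM in CT, 0.373, 0.941 and 1.34 CPM in MC26 and 0.654, 0.615 and 0.813 CPM in M1B26, at -3.48 ± 0.24, while LTBP1, which binds latent TGF-beta, rose by 2.13 ± 0.08. IGFBP2 and the insulin receptor INSR were lower, at -2.92 ± 0.26 and -0.60 ± 0.11, and IGFBP7 was higher, at 1.51 ± 0.09.

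Of 36 S phase and DNA replication genes, 18 had all 6 libraries higher and none had all lower. By the test 29 rose and none fell, with a median log2 fold change of only 0.32. GINS2 and CDT1 both act at replication origins. GINS2 measured 35.5, 35.9 and 35.3 CPM in CT, 55.5, 51.6 and 50.6 CPM in MC26 and 68.3, 67.7 and 63.3 CPM in M1B26. CDT1 measured 51, 42.8 and 60.02 CPM in CT, 91.8, 80.7 and 85 CPM in MC26 and 82.8, 76.2 and 82.5 CPM in M1B26. With library totals 12 of the 36 were kept as higher and 21 were called higher, and with the lines merged 17 were called. Of 32 G2/M genes 1 was kept as higher, AURKB, and 1 as lower, CENPF. MKI67, the proliferation marker, had 397, 466 and 459 CPM in CT, 575, 503 and 440.3 CPM in MC26 and 258, 221 and 261 CPM in M1B26. Its pooled log2 fold change of -0.32 ± 0.09 (adjusted p = 0.0143) was the mean of 0.20 in MC26 and -0.84 in M1B26, which differed (-1.04 ± 0.11, adjusted p = 4.91e-05). Its call was lost with the lines merged (adjusted p = 0.595), against a 1.5-fold threshold (adjusted p = 1), and without CT replicate 2 (adjusted p = 0.0561) or CT replicate 3 (adjusted p = 0.0563). Among G1 regulators CCND2 rose by 2.54 ± 0.11, and the CDK inhibitor CDKN1C was at -2.68 ± 0.33, with 27.9, 22.3 and 32.3 CPM in CT, 2.26, 6.43 and 6.47 CPM in MC26 and 1.65, 3.34 and 5.91 CPM in M1B26.

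Metabolic and stress lists differed in direction. No fatty acid gene of 19 was kept as higher and 6 were kept as lower. ACSL1, an acyl-CoA synthetase, had 353, 337 and 302 CPM in CT, 96.1, 149.5 and 189 CPM in MC26 and 121, 132 and 166 CPM in M1B26. In the NRF2 list 6 of 21 were kept as lower and 3 as higher. FTH1, the ferritin heavy chain, measured 6232, 5028 and 6667 CPM in CT, 1431, 2659 and 3115 CPM in MC26 and 1879, 2380 and 2723 CPM in M1B26, and AKR1B10 and ABCC3 were at -1.85 ± 0.20 and -1.03 ± 0.09. Of 31 glycolysis and hypoxia genes 8 were kept as higher and 1 as lower, led by EGLN3, ADM and CA12 at 1.73 ± 0.23, 1.52 ± 0.15 and 1.20 ± 0.07. For the unfolded protein response 9 of 20 were kept as higher and 1 as lower, with SDF2L1 at 0.82 ± 0.14 and EDEM1 at 0.67 ± 0.06. With library totals 6 of these 20 genes and 5 of the 31 glycolysis and hypoxia genes were kept as higher. Of 42 nuclear genes of oxidative phosphorylation none was kept as higher and 3 (7.14%) as lower, against 15.9% of all genes tested kept as lower. By the test 10 of the 42 rose and 8 fell, with a median log2 fold change of 0.04.

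Of the lineage and stem cell lists, TP63, the basal master regulator, measured 36, 30.5 and 29.3 CPM in CT, 76.9, 78.7 and 78.6 CPM in MC26 and 81.4, 73.8 and 81.7 CPM in M1B26. It was even between the lines, at 1.30 ± 0.08. ESR1, BCL11B, TBX3 and KLF5 also had all 6 libraries higher, and EHF, TFAP2C, GATA3 and SOX9 all lower. ESR1 stayed under 0.5 CPM in every library. Of 13 tested stem and progenitor surface markers and aldehyde dehydrogenases, 3 were kept as higher and 2 as lower, and 6 rose and 4 fell by the test. ALDH1A1, an aldehyde dehydrogenase used as a stem cell marker, had no count in CT and between 0.837 and 20.1 CPM in the transformed libraries. It was at least 13.6-fold above the CT floor in MC26 and 175-fold in M1B26. The 2 kept as lower were also aldehyde dehydrogenases. ALDH3A1 had 18766 counts over the 3 CT libraries and 4503 over the 6 transformed libraries, and ALDH3B1 had 11081 and 4608. MME, which encodes CD10, had 6.53, 8.34 and 6.14 CPM in CT, 6.19, 12.8 and 21.7 CPM in MC26 and 44.2, 51.6 and 43.8 CPM in M1B26. It was called (1.87 ± 0.30, adjusted p = 0.000552) but not kept, since MC26 replicate 1 lay within CT, and M1B26 exceeded MC26 by 1.78 ± 0.32 (adjusted p = 0.00145). In the Notch, WNT and axon guidance lists, kept genes lay on both sides, with 5 higher and 3 lower of 18, 4 higher and 5 lower of 28, and 7 higher and 8 lower of 33. The Notch ligand DLL1 was furthest above CT of these lists (2.68 ± 0.29), and the receptor EPHB6 furthest below (-3.84 ± 0.33). Against 31.1% of all genes tested, kept genes were 8 of 25 in the p53 list, 9 of 25 in the ATF4 list, 8 of 21 in the MAP kinase feedback list, 6 of 18 in the YAP list, 4 of 15 in the BCL2 family, 4 of 23 in the cholesterol list and 7 of 19 in the list of DNA methylation and polycomb enzymes, on both sides of CT in each.

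Kept genes could differ in size between the lines, which the comparison of M1B26 with MC26 describes. The rule used the same libraries and left out genes whose lines lay apart across CT, so the shares of kept genes are a description. Over all genes tested 6215 (39.5%) differed between the lines. Among kept genes 1573 (32.2%) differed. Of the 1573 genes, 979 lay further from CT in M1B26 and 594 in MC26. Within the set of 303 better expressed genes, each 2-fold or more from CT in both lines, 143 (47.2%) differed between the lines, 63 further from CT in M1B26 and 80 in MC26. A common direction therefore went with unequal size in many genes, as the plot of pooled change by the difference between the lines shows.

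**Figure D5:**
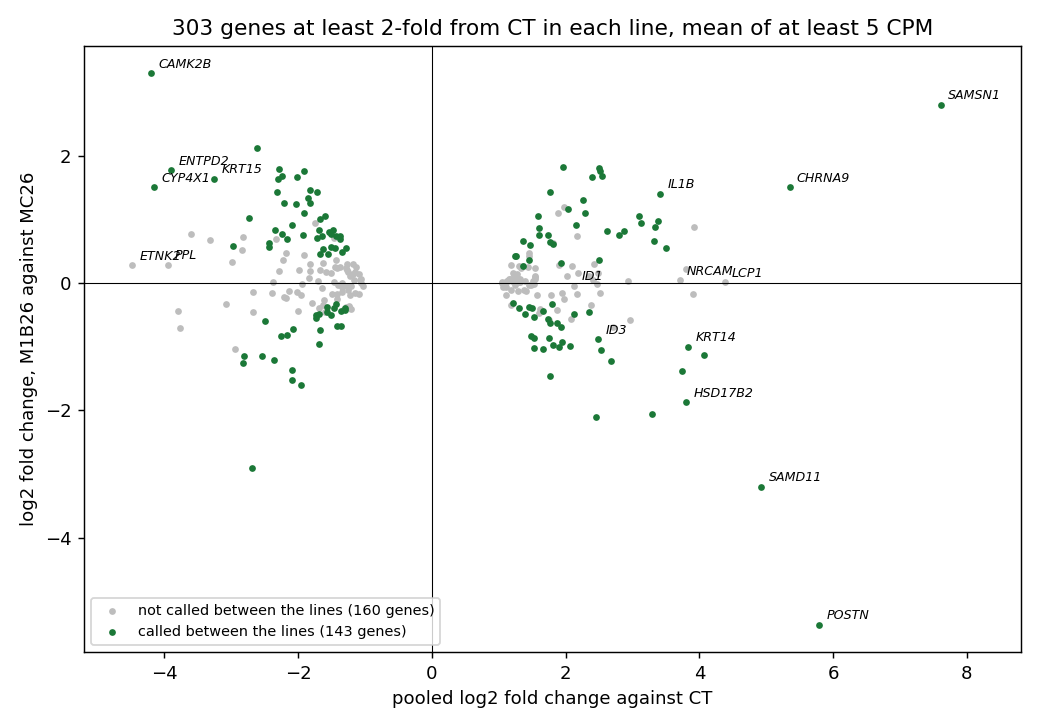
Log2 fold change of M1B26 against MC26 (vertical axis) by pooled log2 fold change against CT (horizontal axis) for 303 genes, 1 point each. Green points are the 143 genes that differed between the lines by the edgeR test, and LCP1, NRCAM and ID1 lie near 0 on the vertical axis while POSTN, SAMD11 and CAMK2B lie furthest from it.

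The kept genes were unevenly spread over chromosomes. On chromosome 17, 207 of 843 tested genes (24.6%) had all 6 libraries higher and 61 (7.24%) all lower. The median log2 fold change over that chromosome's tested genes was 0.00 in MC26 and 0.48 in M1B26. On chromosome 19 the shares were 15.1% higher and 9.03% lower, with medians of 0.08 and 0.09. On the other autosomes and the X chromosome between 10% and 19.7% of tested genes were kept as higher. Genes named above that lie on chromosome 17 include KRT13, KRT14, KRT15, SOCS3, STAT3, CSF3, CD68, DLX3, ITGB4, SOX9, AURKB, ABCC3, COL1A1 and PECAM1. The change of STAT3 (0.29) was close to the pooled median of that chromosome (0.22). Protein-coding genes were kept in 17% of cases as higher and 16.5% as lower, and long non-coding genes in 10.6% and 17.5%. Positions came from GENCODE v44 and were unique for 13830 of the 15717 genes tested.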

How the data were processed

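Poly-A RNA of 9 cultures (3 each of CT, MC26 and M1B26) was sequenced in paired-end mode. Per the methods and labels, reads were aligned to GRCh38 with STAR 2.7.3a on GENCODE v33, and Salmon 1.1.0 is named for protein-coding genes. The deposited table holds raw counts for 60199 gene symbols, of which 29997 had at least 1 count. The program behind these counts, its use of strand and its treatment of multi-mapped reads are not given in the sources used here, so overlapping and antisense genes and near-identical paralogs are uncertain. Labels and methods differ in the concentrations of BMP2 and IL6.

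Samples were grouped by the labels. Genes were filtered with filterByExpr (minimum count 10) and scaled by TMM, and CPM were computed from the scaled totals. The edgeR 4.0.16 quasi-likelihood test (R 4.3.3) with 1 mean per line compared the mean of MC26 and M1B26 with CT, and M1B26 with MC26, with Benjamini-Hochberg adjustment. P-values measure the spread between these cultures. On simulated counts for the 15464 genes drawn, 200 of 200 changed genes were recovered in the pooled comparison, with 9 false calls. The set changes were 2-fold or more, alike in both lines, and only in genes with a mean of at least 50 counts. All genes had the same spread. Smaller changes, weaker genes and differences between the lines were not simulated, so recovery there is not known.

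Named genes were the 15 highest and 15 lowest kept and called genes that averaged 5 CPM or more and lay 2-fold or more from CT in each line, the extreme kept members of 49 gene lists and those differing between the lines, and 17 fixed pathway genes. Some genes that this rule selects are not reported here. The members and lists were chosen with earlier results of these data known. Alternatives were DESeq2 1.42.0, other scaling, filters and thresholds, merged lines, a replicate block and leaving out libraries. Lists were counted, not tested as sets. Counting error and the 3 cultures a line limit precision, with a biological coefficient of variation of 10.4%.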

Additional observations from a re-analysis of the deposited data

Results flagged for a closer look

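Of 47 named genes, 23 differed between the derived lines by the edgeR quasi-likelihood test of M1B26 against MC26 (adjusted p under 0.05), 10 higher and 13 lower in M1B26. These are values with no explanation, and the 3 libraries of each line are the replicates.

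Among genes furthest above CT, M1B26 exceeded MC26 in SAMSN1 (log2 fold change 2.80), CHRNA9 (1.51), IL1B (1.41) and GRAMD1B (0.55). MC26 exceeded M1B26 in POSTN (-5.37), SAMD11 (-3.20), HSD17B2 (-1.88), AC079949.2 (-1.39), INSYN2B (-1.12) and KRT14 (-1.001). Among genes furthest below CT, M1B26 lay nearer CT in CAMK2B (3.29), ENTPD2 (1.78), KRT15 (1.64), CYP4X1 (1.51) and KRT80 (0.59).

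In the BMP pathway MC26 exceeded M1B26 in SMAD6 (-2.70), ID2 (-2.06), SMAD7 (-1.46), ID3 (-0.88), BMPR2 (-0.65) and BMPR1B (-0.34). MKI67 was lower in M1B26 (-1.04), and MME, which encodes CD10, was higher (1.78).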

How the results depend on the processing

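Pooled against CT, the 7202 called genes became 7204 with DESeq2, 7205 with RLE factors, 7394 with library totals, 7519 without a filter on low counts and 6301 with a mean of at least 50 counts. Leaving out 1 library gave between 5480 (without CT replicate 1) and 7316 (without MC26 replicate 3) called genes, between 5095 and 6252 kept genes and between 1196 and 2223 kept genes that differed between the lines. With the lines merged the count fell to 3975 (1986 higher, 1989 lower), and against a 1.5-fold threshold (glmTreat) to 1449 (618 higher, 831 lower). In 3575 genes each line was called on its own in the same direction. A 2-fold gap between the nearest libraries left 508 kept genes. Of kept genes, 885 differed between the lines at adjusted p under 0.01 and 241 with glmTreat, in place of 1573. Of the recomputed log2 fold changes of 47 named genes 829 kept their sign and side of the threshold, and 16, in 8 genes, lost the call.

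Replicate numbers were not used to pair the samples. Correlations of same-numbered libraries' deviations from their line means ran from -0.114 to 0.136. Between MC26 and M1B26 they were 0.081, 0.0418 and 0.136, against -0.114 to 0.041 for libraries of unlike number. Whether cultures of the 2 derived lines were paired was not tested. With the replicate block 7007 genes were called. Without MC26 replicate 3 and M1B26 replicate 3, chosen after seeing the data, 5937 genes were kept. Where no cause is given it was not tested.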

Other observations

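Some gene groups separated the derived lines and had few genes with all 6 libraries on one side of CT. All 13 genes of oxidative phosphorylation encoded in mitochondrial DNA differed between M1B26 and MC26, against 39.5% of all genes tested, while 1 of them, MT-ND3, was kept. MT-CYB, a complex III subunit, had log2 fold changes against CT of 0.31 in MC26 and -0.21 in M1B26 (difference -0.52 ± 0.11 SE, adjusted p = 0.0042). Of 42 nuclear subunits 29 differed between the lines and 3 were kept. ATP5MC1, a subunit of ATP synthase on chromosome 17, had -0.15 in MC26 and 0.80 in M1B26 (difference 0.95 ± 0.09 SE, adjusted p = 2.45e-05). The median over the tested genes of chromosome 17 was 0.00 in MC26 and 0.48 in M1B26, and its part in this difference was not tested.

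Single genes differed widely between the lines. SERPING1, the C1 inhibitor, had log2 fold changes of 2.80 in MC26 and -1.69 in M1B26 (difference -4.50 ± 0.54 SE, adjusted p = 0.000128). CD40, a TNF receptor family member, had 0.40 in MC26 and -3.70 in M1B26 (difference -4.10 ± 0.39 SE, adjusted p = 2.68e-05). EPCAM, an epithelial adhesion molecule, had -2.25 in MC26 and 0.04 in M1B26 (difference 2.28 ± 0.17 SE, adjusted p = 5.22e-06). LUM, the matrix protein lumican, had 0.34 in MC26 and 5.59 in M1B26 (difference 5.25 ± 0.49 SE, adjusted p = 2.68e-05), from 18 counts over the CT libraries. These genes were picked after their values were seen.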
